A study of Sus scrofa with 10 samples.

Results

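The genes of oxidative phosphorylation were examined in pig ovaries, as the protein-coding loci that the deposited annotation places in KEGG pathway 00190. The rule found 130 members among 43499 gene loci, of which 19972 were protein-coding and 6831 were protein-coding with any KEGG pathway. Of the members, 13 lay on the mitochondrial chromosome and 117 in the nuclear genome. Oxidative phosphorylation is the last stage of respiration. Complexes I to IV in the inner mitochondrial membrane pass electrons to oxygen and pump protons, and complex V uses the returning protons to make ATP. All of these complexes except complex II are built from subunits of both genomes, and the KEGG pathway also holds the V-ATPase, a proton pump of lysosomes and other vesicles, the gastric type H+/K+-ATPase and soluble phosphatases. In the ovary, steroid-making cells are known for many mitochondria, because the first step from cholesterol takes place there.

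RNA had been sequenced from the ovaries of 10 gilts of 234 days of age with a shared genetic background, 5 as the control group and 5 as the rpFSH treatment group. All gilts, controls included, had been fed altrenogest, a progestin that holds back oestrus, from 210 days of age for 18 days, at a daily 20 mg. After 2 days without it, each gilt of the rpFSH treatment group received 1000 IU of recombinant pig follicle-stimulating hormone, and the controls an equal volume of saline. Surface follicles were removed before freezing, so the samples are the remaining ovary tissue, with a separate library for each pig. The comparison addresses how the hormone treatment altered gene expression in this tissue.

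Total counts per pig were between 64873797 and 75114003. Of all counts, the nuclear members took 0.374% ± 0.0813 in control pigs and 0.354% ± 0.120 in rpFSH pigs (SD, n = 5 each). Levels of cell type markers differed widely between the pigs. The summed CPM (counts scaled to library size, after TMM normalization) of 6 luteal markers, the genes of progesterone-making cells, was 15295 in control 2, 9784 in rpFSH 1 and 2632 in rpFSH 4, and lay between 275 and 590 in the other pigs. The sum of 9 markers of ciliated epithelium was 588 in control 2 and 1285 in control 5, against 57.9 to 119 elsewhere. Not all 9 are genes of cilia, since OVGP1 is a secreted oviduct protein, and its locus also covers WDR77. OVGP1 made up 190 CPM of the sum in control 2 and 549 CPM of that in control 5. Fewer cells of a type and less RNA per cell cannot be told apart in such bulk samples.

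None of the mitochondrially encoded members had a value to compare. ND1, ND2, ND3, ND4, ND4L, ND5 and ND6 of complex I, CYTB of complex III, COX1, COX2 and COX3 of complex IV, and ATP6 and ATP8 of complex V were listed with a count of 0 in all 10 pigs. The same held for every one of the 37 loci of the mitochondrial chromosome, which also comprise 22 tRNA and 2 rRNA loci, and FPKM (fragments per unit of transcript length and library size) stood at 0.0001, the lowest value that the table writes. These transcripts are abundant in every cell that respires, and so the zeros are given only as listed and no level, fold or limit was drawn from them. The nuclear and mitochondrial parts of the same complexes could therefore not be set against each other. All results that follow are those of the nuclear members.

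Of the 117 nuclear members, 110 reached a mean FPKM of 0.1 over the 10 pigs and were tested, and 106 had a count in every pig. The 7 members under that level were tissue-restricted forms for the most part. They were COX6B2, COX8H and the locus described as COX subunit 8C, the V-ATPase subunits ATP6V1C2 and ATP6V1G3, and ATP4B and ATP12A of the H+/K+-ATPase, and among them ATP6V1G3 and COX8H had no count in any pig. In 15 members the assembled locus also covered another gene, such as BAZ2A with ATP5B, COL7A1 with UQCRC1, or NKAPD1 with SDHD, and their values cover both genes.

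**Figure D1:**
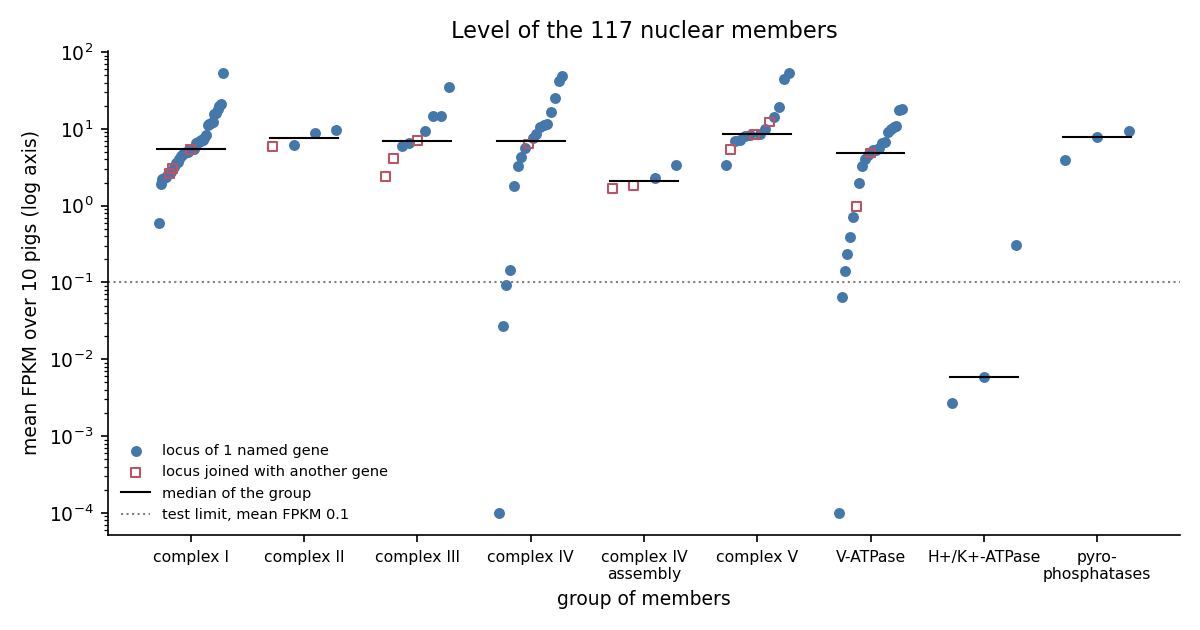
Each point is the mean FPKM of a nuclear member over 10 pigs, on a log axis, by complex, with a bar at the median of the group. Squares are loci joined with another gene, and the dotted line is the test limit of 0.1. Most subunits of complexes I to V lie between 1 and 60 FPKM, whereas complex IV, the V-ATPase and the H+/K+-ATPase each hold members near or below the limit.

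The nuclear members were expressed above the level of most genes. Their median was 5.95 FPKM, against 2.70 FPKM for the tested protein-coding loci. The most expressed member was NDUFA4, with 53.7 FPKM. It is grouped here by its symbol with complex I, although the protein is now placed with cytochrome c oxidase. ATP5PO, in the stalk of ATP synthase, had 52.5 FPKM, and COX4I1, a regulatory subunit of cytochrome c oxidase, had 49.0 FPKM. In complex III the highest level was that of UQCR10 (35.4 FPKM), in complex II that of SDHA (9.54 FPKM) and in the V-ATPase that of ATP6V0D1 (18.4 FPKM). Complex medians in FPKM were 5.41 for complex I, 7.49 for complex II, 7.00 for complex III, 6.99 for complex IV, 8.59 for complex V and 4.85 for the V-ATPase. The complexes thus had similar medians. Levels ranged from 0.592 to 53.7 FPKM in complex I but only from 5.94 to 9.54 FPKM in complex II. Both ends of the former range, NDUFA4L2 and NDUFA4, are grouped with complex I by symbol alone.

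Some subunits have forms encoded by separate genes, and in the pairs of complexes I and IV the widely expressed form was the higher in these ovaries. COX4I1 exceeded COX4I2, the form known from lung and low oxygen, in 10 of 10 pigs, with a median FPKM ratio of 9.04 and a range from 4.40 to 20.9. COX7A2, the liver type form, exceeded COX7A1, the form of heart and skeletal muscle, in 10 of 10 pigs with a median ratio of 9.06. For COX6A1, whose locus also covers GATC, against its muscle form COX6A2 the median ratio was 3.57, and for NDUFA4 against NDUFA4L2, a form induced by low oxygen, it was 85.5, again in 10 of 10 pigs. In the V-ATPase, ATP6V0A2 and ATP6V0A1 of the membrane sector were close, with a median ratio of 1.25, and ATP6V0A2 was the higher in 9 of 10 pigs. TCIRG1, the a3 subunit of osteoclasts, stood below ATP6V0A2 by a median ratio of 2.66. The mitochondrial pyrophosphatase PPA2 and the cytosolic PPA1 did not hold an order, since PPA2 was the higher in 6 of 10 pigs. The ratio of COX4I1 to COX4I2 was highest in control 2, where COX4I2 had its lowest level (2.72 FPKM) of the 10 pigs.

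No nuclear member differed between the rpFSH treatment group and the control group after adjustment. With edgeR's quasi-likelihood test and the Benjamini-Hochberg method over 36339 loci, 0 of 110 members had an adjusted p under 0.05, and neither did any other locus (0% called). At an unadjusted p under 0.05, 0 members were higher in the rpFSH treatment group, against 1.09% of the tested protein-coding loci, and 1 was lower, against 3.7%. That member, ATP6V1B1, was also the only member to pass the limits used in the study, an unadjusted p under 0.05 with a log2 ratio beyond 1 or -1, which 3.1% of the protein-coding loci passed. DESeq2 gave 1 member an adjusted p under 0.05, again ATP6V1B1 (0.648% of protein-coding loci), and limma on log2(FPKM + 1) gave 0 (0%). The pigs of the groups did not separate in CPM for any member, while 0.158% of protein-coding loci had all rpFSH pigs above all controls and 0.363% had them below. The ratios were positive for 44 members and negative for 66 (60%), and 59.5% of all tested protein-coding loci were negative. The median log2 ratio was -0.05 for the members and -0.05 for these loci as well.

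The 95% confidence interval of the log2 ratio lay wholly between -1 and 1 for 80 of 110 members, so a doubling or halving of these was outside the interval, and the median reach of the interval to either side was 0.67. For members whose interval reached further than this, a difference of that size could not be resolved with 5 pigs in each group.

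**Figure D2:**
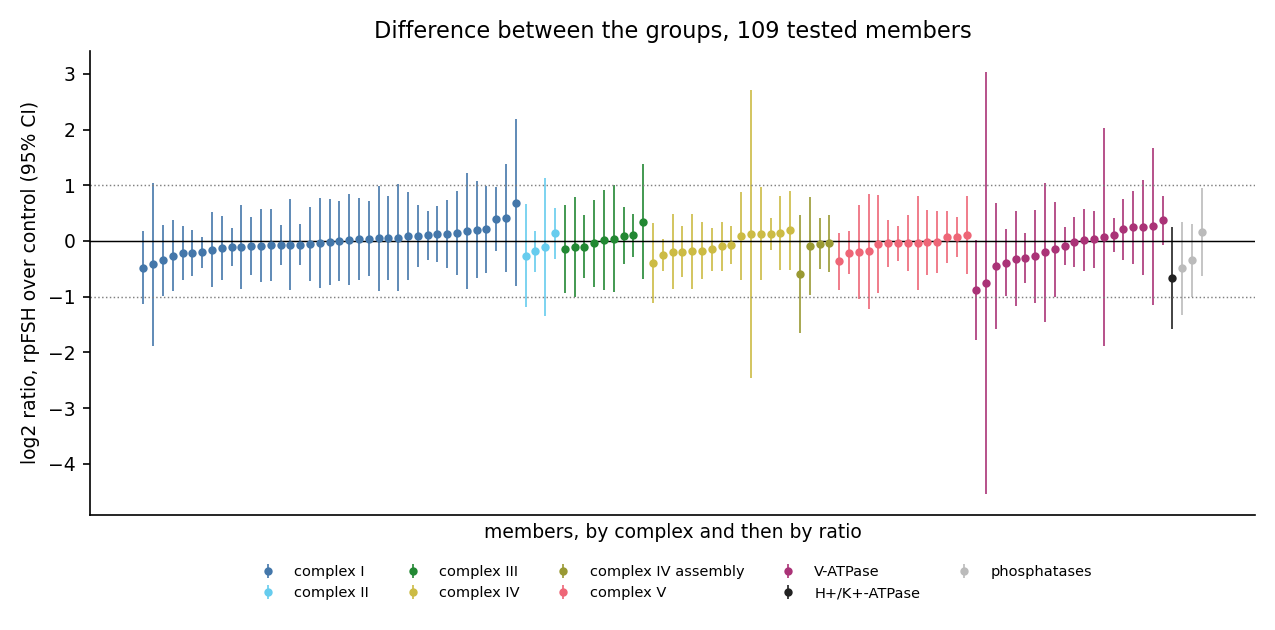
Points are log2 ratios of the rpFSH treatment group over the control group for the tested nuclear members other than ATP6V1B1, which lies at -7.15 and is left off the axis, with 95% confidence intervals from edgeR. Members are ordered by complex and then by ratio, and dotted lines mark log2 ratios of -1 and 1. The intervals of all plotted members cross 0. Of the ratios in complexes I to V, 34 are positive and 47 negative (58.0%, against 59.5% of tested protein-coding loci).

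Complex I takes electrons from NADH. All 39 nuclear members of complex I were tested, 19 with a positive and 20 with a negative ratio, and the median was -0.02. NDUFS1, the largest iron-sulfur subunit of the arm that holds the electron carriers, had 63.9 ± 22.4 CPM in control pigs and 60.6 ± 24.9 CPM in rpFSH pigs (SD, n = 5 each). The log2 ratio was -0.08 (95% CI -0.73 to 0.58). For NDUFV1, the subunit that binds NADH, the log2 ratio was -0.26 (95% CI -0.90 to 0.38). The lowest ratio of the group was that of NDUFA4L2, with a log2 ratio of -0.48 and an adjusted p of 0.937 in edgeR's quasi-likelihood test. Like NDUFA4, it is placed with complex I by its symbol alone. The highest was that of NDUFB11 (chromosome X, 41766952 to 41774371, Sscrofa11.1), a subunit of the membrane arm that is named here after its values were seen. NDUFB11 stood at 8.47, 20.9, 6.42, 5.87 and 6.40 CPM in controls 1 to 5 and at 47.4, 7.18, 5.42, 12.2 and 4.95 CPM in rpFSH 1 to 5. A single pig of each group was far above the rest, and the groups overlapped. Its log2 ratio of 0.68 had a standard error of 0.67, and it was -0.37 without rpFSH 1 and 1.18 without control 2.

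Complex II, succinate dehydrogenase, has no mitochondrially encoded subunit and also belongs to the citric acid cycle. SDHA (chromosome 16, 79838154 to 79906500), which carries the flavin, had 72.4, 210, 62.3, 81.4 and 64.6 CPM in controls 1 to 5 and 147, 74.1, 47.3, 85.3 and 54.7 CPM in rpFSH 1 to 5. Control 2 and rpFSH 1 were again the highest of their groups. The log2 ratio of SDHA was -0.26 ± 0.42 (SE), and that of SDHB, the iron-sulfur subunit, was 0.14 ± 0.20 (SE). The median of the 4 members was -0.15.

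Complex III passes electrons from ubiquinol to cytochrome c. Of its 9 nuclear members, 5 had a positive and 4 a negative ratio, with a median of 0.01. CYC1 (chromosome 4, 606516 to 608996), the cytochrome c1 of the complex, had 19.0, 24.2, 15.9, 15.7 and 21.5 CPM in controls 1 to 5, and 64.5, 17.2, 10.5, 14.7 and 15.2 CPM in rpFSH 1 to 5. The highest value of all was that of rpFSH 1, whereas the other rpFSH pigs lay between 10.5 and 17.2 CPM and overlapped the controls. Its log2 ratio was 0.34 ± 0.47 (SE) with all pigs, and -0.42 when rpFSH 1 was left out. UQCRFS1, the Rieske iron-sulfur protein, had a log2 ratio of 0.04 (95% CI -0.91 to 1.00). UQCRC1, a core protein whose locus also covers COL7A1, had a log2 ratio of -0.04 (95% CI -0.82 to 0.74).

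Complex IV hands the electrons to oxygen, and its catalytic subunits are the mitochondrially encoded ones listed at 0. Of the 15 tested nuclear subunits, 6 had a positive and 9 a negative ratio, and the median was -0.09. COX4I1 was among the least variable members, at 52.1 ± 10.0 CPM in control pigs and 49.4 ± 5.10 CPM in rpFSH pigs (SD, n = 5 each). Its log2 ratio of -0.08 had a 95% CI from -0.42 to 0.26. COX4I2 (chromosome 17, 35340572 to 35346087) had 7.73, 2.22, 4.99, 3.57 and 6.19 CPM in controls 1 to 5 and 4.30, 2.97, 2.75, 4.32 and 4.41 CPM in rpFSH 1 to 5, with a log2 ratio of -0.40 ± 0.32 (SE). Here control 2 was the lowest of all pigs, the reverse of most members, and the groups overlapped. COX5A had a log2 ratio of 0.19 ± 0.32 (SE). COX6C, named after its values were seen, had the smallest p of the complex, with a log2 ratio of -0.25 ± 0.13 (SE) and an adjusted p of 0.887 in edgeR's quasi-likelihood test. The 4 assembly genes of the pathway, COX10, COX11, COX15 and COX17, all had ratios below 0, with a median of -0.06.

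In complex V, the ATP synthase, 3 members had a positive and 11 a negative ratio (78.6%, against 59.5% of tested protein-coding loci). The median of the 14 was -0.04. ATP5F1A, the alpha subunit of the catalytic head, had 176 ± 81.8 CPM in control pigs and 153 ± 82.9 CPM in rpFSH pigs (SD, n = 5 each). Its log2 ratio was -0.20 (95% CI -1.05 to 0.64). For the locus of ATP5B, the catalytic beta subunit, which also covers BAZ2A, the log2 ratio was -0.02 (95% CI -0.61 to 0.56). The genes ATP5MC1, ATP5MC2 and ATP5MC3 encode the same mature ring protein. ATP5MC2 exceeded ATP5MC1 in 10 of 10 pigs, with a median FPKM ratio of 2.37. How reads shared by near-identical copies were assigned is not given in the sources used here, and levels of such subunits are uncertain to that extent.

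The V-ATPase held the members with the lowest ratios. Of its 21 tested members, 9 had a positive and 12 a negative ratio, with a median of -0.09. ATP6V1B1 (chromosome 3, 71559938 to 71591845), the B1 subunit known from acid-secreting epithelia of kidney and inner ear, had 19, 1846, 0, 50 and 1523 counts in controls 1 to 5 and 2, 4, 0, 17 and 0 counts in rpFSH 1 to 5. Controls 2 and 5 held nearly all of its counts, and the other controls overlapped the rpFSH pigs. These are the pigs with the highest sums of ciliated epithelium markers. Of that list 8 of 9 genes, OVGP1 among them, were lower with rpFSH at an unadjusted edgeR p under 0.05 (3.7% of protein-coding loci). None of them passed adjustment, with a smallest adjusted p of 0.857 in edgeR. FOXJ1, the transcription factor that defines such cells, was at 25.3 CPM in control 2 and 57.6 CPM in control 5 and at most 0.861 CPM elsewhere, with 0 in rpFSH 1 and rpFSH 5. The part of such cells in the result was not tested. The locus also covers a gene known only by its identifier. Its log2 ratio was -7.15 ± 2.02 (SE) with an adjusted p of 0.857 in edgeR's quasi-likelihood test. DESeq2 gave an adjusted p of 0.0430, and the adjusted p ranged from 0.0430 to 1 over the alternatives. Without controls 2 and 5 the log2 ratio was -2.20 and the unadjusted p 0.182 in the same edgeR fit. ATP6V1B2, the widely expressed form, was the higher of the pair in 10 of 10 pigs, and its lead was smallest in control 5, where the FPKM ratio was 1.93.

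ATP6V1A (chromosome 13, 146123918 to 146193113), the catalytic A subunit, had 50.0, 150, 36.9, 36.2 and 42.0 CPM in controls 1 to 5 and 40.9, 37.9, 27.5, 28.2 and 36.9 CPM in rpFSH 1 to 5. Control 2 was 3.58 times its group's median, and without this pig the log2 ratio moved from -0.88 to -0.27. The edgeR adjusted p of ATP6V1A was 0.860. It is the nearest member to the limit of an unadjusted p of 0.05 on the outer side, at 0.0525, whereas ATP6V1B1 is the nearest on the inner side, at 0.00513. Unlike most members, ATP6V1A was not raised in rpFSH 1, where it was 1.09 times the median of the 10 pigs. TCIRG1 had the highest ratio of the V-ATPase, with a log2 ratio of 0.37 ± 0.20 (SE) and an edgeR adjusted p of 0.898. It had 14.5 ± 1.92 CPM in control pigs and 18.8 ± 5.25 CPM in rpFSH pigs (SD, n = 5 each), and its highest value was 27.2 CPM in rpFSH 4. Among the phosphatases, LHPP had a log2 ratio of -0.49 ± 0.38 (SE) and PPA2 one of -0.35 ± 0.30 (SE), and ATP4A, the only tested subunit of the H+/K+-ATPase, had one of -0.66 with an edgeR adjusted p of 0.937.

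**Figure D3:**
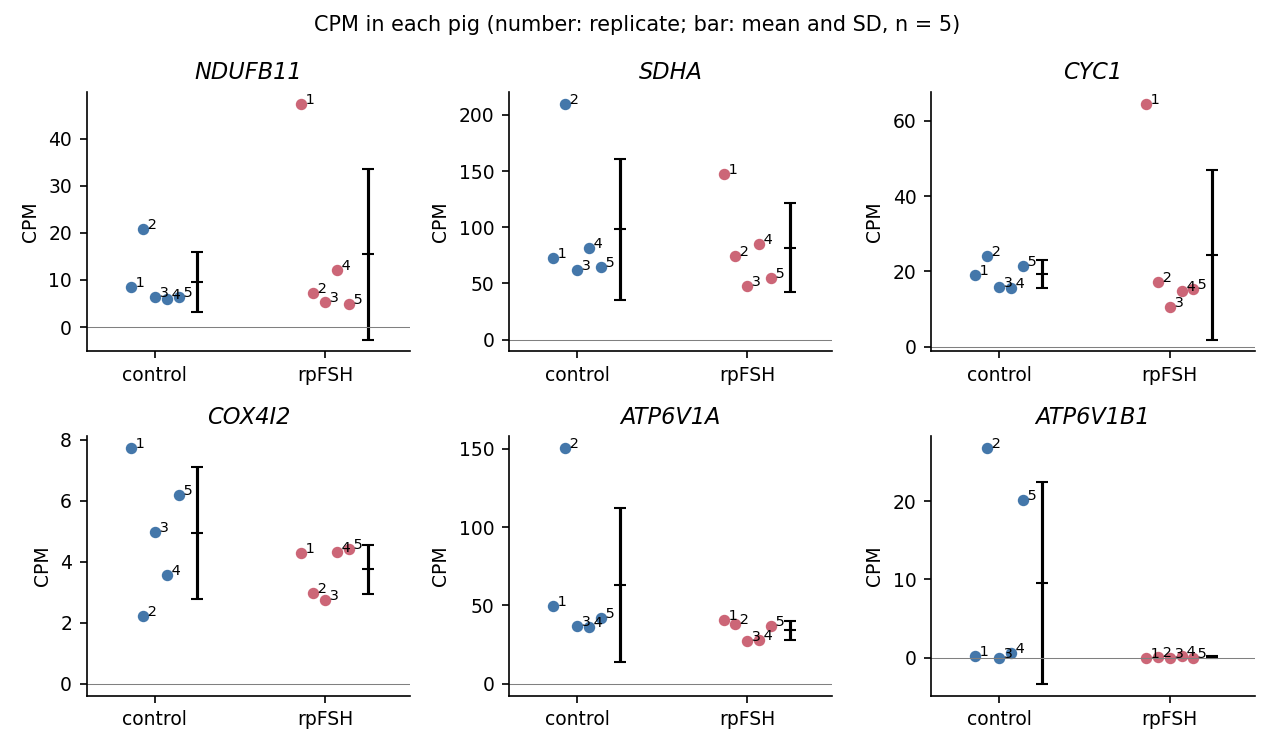
CPM of 6 members in each pig, with the replicate number beside each point and a bar at the mean and SD (n = 5) of each group. Control 2 is highest for SDHA, ATP6V1A and ATP6V1B1 and lowest for COX4I2, rpFSH 1 is highest for NDUFB11 and CYC1, and the groups overlap in every panel.

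The differences between single pigs were larger than those between the groups. For the 102 members whose mean FPKM was 1 or more, the log2 distance of each pig from the median of the 10 pigs was taken per member. Its median over members was 0.84 in rpFSH 1, 0.52 in control 2 and -0.39 in rpFSH 3, and lay between -0.11 and 0.07 in the other pigs. Over 11315 protein-coding loci of the same level the corresponding values were 0.07, 0.08 and -0.08. Either rpFSH 1 or control 2 had the highest CPM of all pigs in 90 of the 102 members (88.2%), compared with 43.6% of the protein-coding loci. In rpFSH 1, 41 members (40.2%) exceeded 2 times the median of the 10 pigs, compared with 7.41% of protein-coding loci. At the other end, rpFSH 3 was the lowest pig for 58 members (56.9%), compared with 20.7% of protein-coding loci. These pigs were picked out by the values themselves, and the shares are given as a description.

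The pattern ran through all 5 complexes but with unequal height. In rpFSH 1 the median log2 distance was 1.02 for complex III, 0.95 for complex I, 0.95 for complex II, 0.74 for complex V, 0.71 for the V-ATPase and 0.49 for complex IV. In control 2 complex II was the highest with 0.99, followed by the V-ATPase with 0.72 and complex III with 0.70, while complexes IV and V each stood at 0.38. All 9 nuclear subunits of complex III had their highest CPM in rpFSH 1, as did 12 of 14 in complex V and 30 of 38 in complex I. The same held for 7 of 14 in complex IV, 6 of 16 in the V-ATPase and 1 of 4 in complex II, where control 2 was the highest for 3 of 4. Among the members, NDUFB11 was 6.58 times the median of the 10 pigs in rpFSH 1, ATP6V0D1, a stalk subunit of the V-ATPase, was 5.32 times and CYC1 was 3.81 times. In control 2 the largest were NDUFC1 (5.21 times), whose locus also covers MGARP, ATP6AP1 (4.38 times), an accessory subunit of the V-ATPase, and ATP6V1A (3.98 times). NDUFC1 and the V-ATPase genes apart from ATP6V1A and ATP6V1B1 in these sentences were named after their values were seen.

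Some members did not share in it, or did so in control 2 alone. COX10, which makes the heme of cytochrome c oxidase, was 0.531 times the median in rpFSH 1 and 0.719 times in control 2. ATP6V0E1, in a locus joined with CREBRF, followed control 2 but not rpFSH 1, at 1.52 times and 0.743 times the median. COX6C was 1.24 times the median in control 2 and 0.809 times in rpFSH 1. It was hardly higher in control 2 (52.2 CPM) than in control 1 (50.9 CPM) and control 4 (51.4 CPM). COX4I2 was 0.565 times the median in control 2 and 0.998 times in rpFSH 1. COX10 and ATP6V0E1 were also named after their values were seen.

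**Figure D4:**
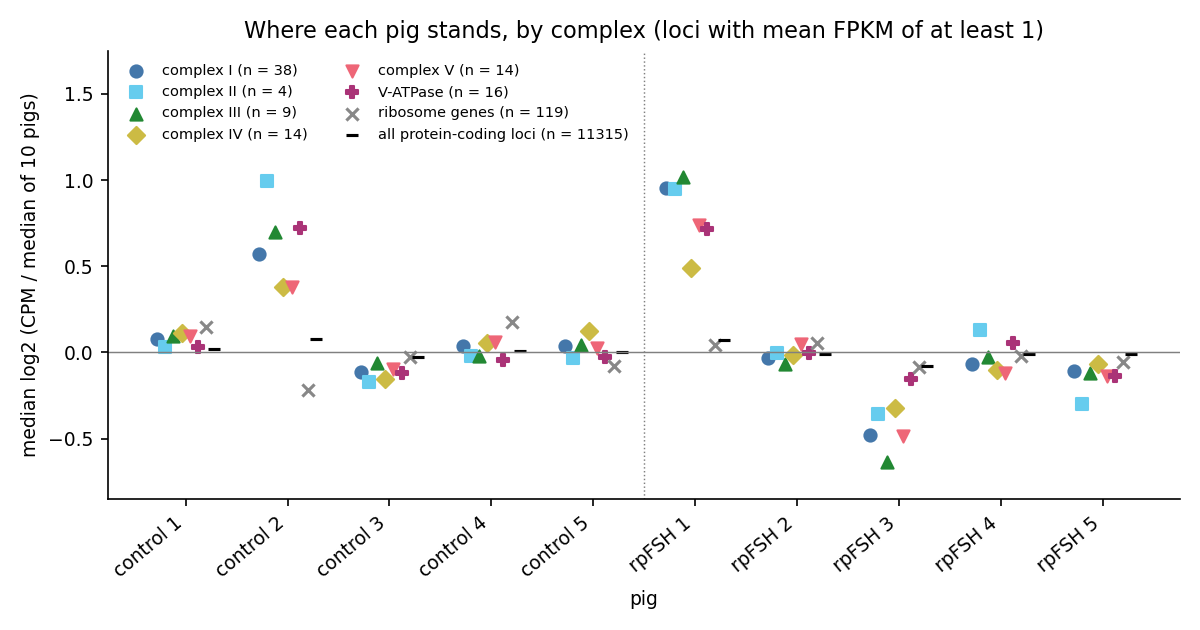
Each symbol is the median, over the members of a complex, of the log2 distance of a pig from the median of the 10 pigs, where mean FPKM was 1 or more, with ribosome genes and all protein-coding loci for reference. All 6 groups of members lie above 0.3 in control 2 and rpFSH 1 and below 0 in rpFSH 3, whereas the protein-coding loci stay within 0.1 of 0 in every pig.

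The genes of the ribosome, another large set of highly expressed housekeeping genes, were not raised as a set in both pigs. Over 119 genes of the KEGG ribosome pathway the median log2 distance was 0.04 in rpFSH 1 and -0.22 in control 2, and either pig was the highest for 36.1% of them. Most of this share was that of rpFSH 1, the highest pig for 37 genes (31.1%), compared with 21.8% of protein-coding loci. Control 2 was the highest for 6 and the lowest for 52. Genes of the citric acid cycle were raised in both pigs. The median over 22 of these was 0.94 in rpFSH 1 and 0.96 in control 2, and 1 of these pigs was the highest for 90.9%. SDHA and SDHB belong to that cycle too but were not in this list.

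The pigs with the highest share of counts on the nuclear members were also those with the highest luteal markers. The share was 0.355, 0.516, 0.312, 0.350 and 0.335% in controls 1 to 5 and 0.565, 0.314, 0.269, 0.324 and 0.296% in rpFSH 1 to 5. Control 2 and rpFSH 1 held the highest levels of STAR, CYP11A1, SCARB1, HSD3B1 and PTGFR, the genes of cholesterol uptake and transport, steroid synthesis and the receptor for prostaglandin F2 alpha in the corpus luteum. STAR was at 3961 CPM in control 2 and 3293 CPM in rpFSH 1 and at 844 CPM in rpFSH 4, compared with 10.6 to 39.1 CPM in the other pigs. In rpFSH 4, in which luteal markers ranked next, the median log2 distance of the members was -0.05, and 68 of 102 lay below 0. By group, complex II (0.13) and the V-ATPase (0.06) had medians above 0 there, and some members that were high in control 2 and rpFSH 1 were above the median of the 10 pigs in rpFSH 4 too, with log2 distances of 0.80 for NDUFB11, 0.51 for ATP6V0D1 and 0.49 for ATP6AP1. LHCGR, the sixth marker, was highest in rpFSH 1 but stood lower in control 2 than in 5 other pigs. The order of the markers and that of the share also differed, with control 2 first in the former and rpFSH 1 first in the latter. The part of luteal cells in the values of the members was not tested.

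**Figure D5:**
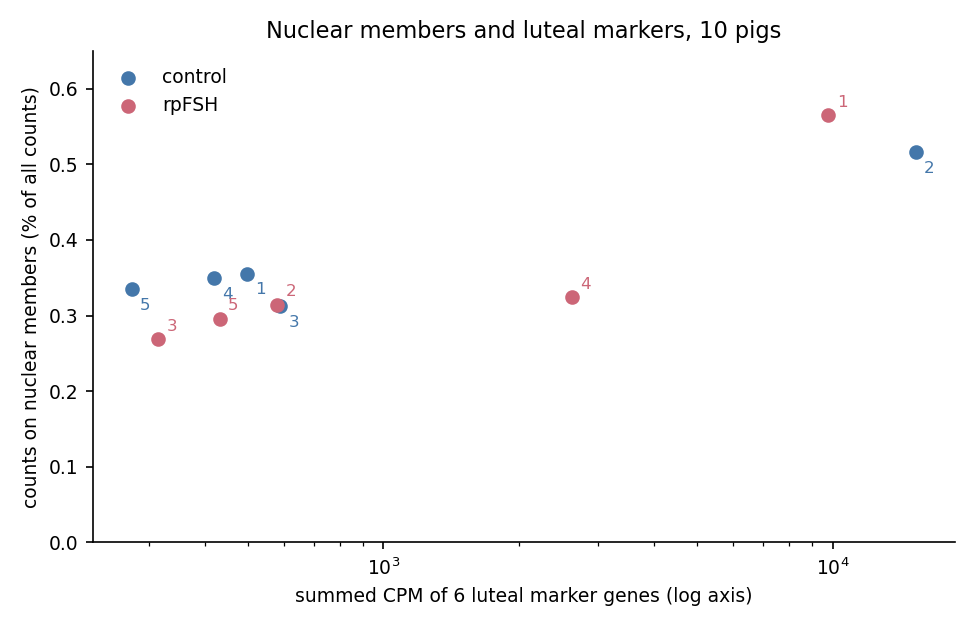
Share of all counts on the nuclear members (%) against the summed CPM of 6 luteal markers on a log axis, with a point for each pig and its replicate number. Control 2 (0.516%) and rpFSH 1 (0.565%) lie apart at the upper right, and rpFSH 4, with a marker sum of 2632, has a share of 0.324%, within the range of the other pigs.

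Because these pigs belong to different groups, leaving them out moved the comparison in opposite directions. The median log2 ratio of the members was 0.09 without control 2 and -0.36 without rpFSH 1, whereas that of the protein-coding loci was -0.01 and -0.10, respectively. Without rpFSH 1, 8 members were lower in the rpFSH treatment group at an unadjusted p under 0.05, where 3.92% of protein-coding loci were. They were ATP6V1B1, the complex I subunits NDUFB2, NDUFB6, NDUFB10 and NDUFC2, and the complex V subunits ATP5F1E, ATP5MC1 and ATP5PF, of which ATP5MC1 had a log2 ratio of -0.84 and the other subunits of complexes I and V lay between -0.64 and -0.35. Without both pigs, 5 of these 8 members were lower (ATP6V1B1, NDUFB2, ATP5F1E, ATP5MC1 and ATP5PF), against 3.18% of protein-coding loci, and the median log2 ratio was -0.16. No member reached an adjusted p under 0.05 in edgeR's quasi-likelihood test in any of these fits, and the subunits were named after their values were seen.

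Genes that serve oxidative phosphorylation beside its subunits were described from 4 lists. None of their loci was that of a member except the locus of MTERF3, which is shared with the member UQCRB. Respiratory chain assembly factors were found for 36 of 42 names, and all 36 were tested. None had an adjusted or unadjusted p under 0.05 in edgeR, where 0% and 4.8% of the tested protein-coding loci did. Of the ratios, 8 were positive and 28 negative (77.8%, against 59.5% of tested protein-coding loci), with a median of -0.06. The smallest p was that of SCO2, which delivers copper to complex IV, with a log2 ratio of -0.32 ± 0.18 (SE). Of 30 genes of mitochondrial transcription and its regulators, 0 were higher and 2 were lower at an unadjusted p under 0.05, where 1.09% and 3.7% of the tested protein-coding loci were, and the median was -0.01. SUPV3L1, an RNA helicase of the mitochondrion, had a log2 ratio of -2.54 ± 1.06 (SE), but its locus also covers HKDC1, and control 2 alone had 340 CPM compared with 8.71 to 23.8 CPM in the other pigs. GABPA, a transcription factor of many nuclear genes of the respiratory chain, had a log2 ratio of -0.33 ± 0.15 (SE). The adjusted p of both was 0.860 in edgeR's quasi-likelihood test.

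In the citric acid cycle list, 0 of 23 tested genes passed at an unadjusted p of 0.05 in edgeR, in either direction, where 4.8% of tested protein-coding loci did. There 5 ratios were positive and 18 negative (78.3%, against 59.5% of tested protein-coding loci), with a median of -0.12. OGDHL, a relative of a subunit of the oxoglutarate dehydrogenase, had the lowest ratio (-1.19 ± 0.58 on the log2 scale, SE), with 5.50 CPM in control 2 and 0.462 to 1.88 CPM elsewhere. Among cytochrome c and the carriers of the inner and outer membrane, 9 of 16 listed genes were tested and 0 passed, against the same 4.8%. UCP2, a carrier of the uncoupling protein family, had a log2 ratio of 0.94 ± 0.53 (SE) with an edgeR adjusted p of 0.918. It stood at 12.8 CPM in rpFSH 1 and 19.4 CPM in rpFSH 4. The other rpFSH pigs (3.25 to 3.80 CPM) lay within the range of the controls (2.56 to 5.57 CPM). In these 4 lists, as among the members, no gene had an adjusted p under 0.05 in edgeR.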

How the data were processed

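RNA-seq values of 10 gilt ovaries were used, 5 per group, with groups and replicate numbers from the sample titles. According to the methods and the submitters' notes, reads were trimmed (Cutadapt), mapped to Sscrofa11.1 (HISAT2 2.0 and Bowtie) and assembled into loci (StringTie 1.3.0) by the authors. The deposited table gives FPKM from StringTie and Ballgown, and a whole-number count per locus whose making is not given in the sources used here. The methods describe rRNA removal, while the labels describe poly(A) selection. No sample column was left unused, and comparison columns of the authors were not used.

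Loci of mean FPKM 0.1 or more were compared on counts with edgeR 4.0.16 (quasi-likelihood test, TMM, robust, two-sided, R 4.3.3), with Benjamini-Hochberg adjustment over all 36339 loci. DESeq2 1.42.0 and limma 3.58.1 on log2(FPKM + 1) were alternatives. Intervals used the SE from the F statistic. In simulated counts of the 36339 loci, 200 protein-coding loci, none of low count, were changed by 2 on the log2 scale, up or down. Of these, edgeR, DESeq2 and limma recovered 63, 84 and 58%. Of their calls, 3.82, 38.2 and 3.33% were unchanged loci. Smaller changes were not simulated. FPKM was used for levels between genes and CPM for pigs. The labels and methods name no sequencing batch, and p-values set the difference between the groups against the spread between pigs.

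Members, lists and tests were chosen with earlier results of these data known. Named genes are the mitochondrial members, core subunits, isoform pairs, members with an unadjusted p under 0.05, the extremes of level per complex and the genes of smallest p in each list. Symbols came from the table for 92 nuclear members and from reference gene tables for 25. No sequence was printed, and promoters were not analysed here.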

Additional observations from a re-analysis of the deposited data

Results flagged for a closer look

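In groups of 5 pigs, the highest or lowest pig was set against Dixon's 95% limit for the gap to its neighbour. For normally distributed values, chance passes this limit in about 1 of 20 groups. The values were CPM without a log and shares of counts, for which that rate need not hold. Of 42 groups of values (20 named members and the share of counts, in each group of pigs), 20 passed, 10 through control 2, 9 through rpFSH 1 and 1 through rpFSH 4. Without NDUFB11 and COX6C, which were named after their values were seen, 18 of 38 passed. The genes share their libraries and members were chosen with earlier results known, so the number of passes is a description and not a test. All 20 lay above the rest of their group.

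In control 2 the values were 103 CPM for NDUFS1, 42.6 CPM for NDUFV1, 210 CPM for SDHA, 518 CPM for ATP5B, 150 CPM for ATP6V1A, 9.03 CPM for NDUFA4L2, 16.3 CPM for LHPP, 33.0 CPM for PPA2 and 20.9 CPM for NDUFB11, between 1.32 and 3.58 times the median of the control group. The nuclear members took 0.516% of its counts, 1.48 times that median.

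In rpFSH 1 the values were 104 CPM for NDUFS1, 63.8 CPM for SDHB, 145 CPM for UQCRC1, 109 CPM for UQCRFS1, 64.5 CPM for CYC1, 13.4 CPM for COX5A, 22.8 CPM for PPA2 and 47.4 CPM for NDUFB11, between 1.79 and 6.61 times the median of the rpFSH treatment group. The nuclear members took 0.565% of its counts, 1.80 times that median. In rpFSH 4 ATP6V1B1 stood at 0.241 CPM, from 17 counts, with 0 to 4 counts in the other rpFSH pigs.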

How the results depend on the processing

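Over 22 other ways of fitting, the median log2 ratio of the nuclear members lay between -0.36 and 0.14. The lowest value came without rpFSH 1 and the highest without controls 2 and 5. The edgeR and limma fits gave 0 members with an adjusted p under 0.05 in every case, and DESeq2 gave 1, ATP6V1B1 (log2 ratio -7.21, adjusted p 0.0430). Shares of tested protein-coding loci stand in brackets where they were taken. The number of members lower at an unadjusted p under 0.05 was 2 with DESeq2 (4.73%) and 0 with limma and a pseudocount of 1 (1.88%). It was 5 without control 2 and rpFSH 1 together (3.18%), an alternative chosen after seeing the data. When each pig was left out, it ranged from 1 to 8 (2.68 to 4.52%). With limma and a pseudocount of 0.1 it was 2, and with upper-quartile factors 2. The number higher ranged from 0 to 1 when each pig was left out (0.897 to 2.06%). It was 1 (TCIRG1) with protein-coding loci alone. The limits of the study passed 0 members with limma and a pseudocount of 1 and 0 at a mean FPKM of at least 1. They passed 1 to 2 when each pig was left out, and 3.1% of protein-coding loci passed them in the main fit.

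The sign of small log2 ratios turned in some fits. CYC1 was at -0.0090 with limma and a pseudocount of 0.1 and ATP5B at 0.014 with protein-coding loci alone. Without controls 2 and 5, the values were 0.14 for NDUFS1, 0.027 for NDUFV1, 0.19 for SDHA, 0.17 for UQCRC1, 0.14 for COX4I1, 0.093 for ATP5F1A and 0.17 for ATP5B. Without control 2 and rpFSH 1 together they were -0.034 for SDHB, -0.32 for CYC1 and -0.17 for COX5A. With each pig left out in turn, log2 ratios ran from -0.36 to 0.16 for NDUFS1, -0.50 to 0.0036 for NDUFV1, -0.59 to 0.22 for SDHA, -0.10 to 0.20 for SDHB, -0.46 to 0.15 for UQCRC1, -0.35 to 0.43 for UQCRFS1, -0.42 to 0.54 for CYC1, -0.15 to 0.0041 for COX4I1, -0.25 to 0.30 for COX5A, -0.59 to 0.12 for ATP5F1A, -0.29 to 0.15 for ATP5B and -0.37 to 1.18 for NDUFB11. Apart from the construction of each alternative, the cause was not tested.

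With the replicate number as a block, the adjusted call count stayed 0, 1 member was lower at an unadjusted p under 0.05, and CYC1 turned to -0.018. The share of protein-coding loci lower at that limit was 3.7% in the main fit and was not taken for the block fit. Same-numbered pigs did not deviate together (r between -0.31 and 0.07). These values showed no pairing by number but cannot exclude one. Taken as a share of protein-coding counts, the nuclear members held 0.528% in control pigs and 0.510% in rpFSH pigs, and single-gene loci held 0.264% of all counts in control pigs. The median log2 ratio of the mitochondrial members has no value under any fit, since all counts are 0. Depth limits the values of ATP6V1B1 in rpFSH pigs, which rest on 17 counts or fewer.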
